A study of Mus musculus with 6 samples.

Results

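The genes described here are the protein-coding mouse genes named Zfp and a number that were expressed in natural killer (NK) cells of the spleen. Genes were selected on their measured level, and a gene was included when it reached at least 5 CPM (counts per 1000000 counts of the library) in at least 3 of the 6 libraries. Genes on the sex chromosomes and Zfp683 (Hobit), a regulator of tissue-resident lymphocytes, were left out by the rule. By this rule 255 of 385 Zfp genes were expressed, among 50686 genes in the count table. The series sequenced RNA from splenic NK cells of C57BL/6J mice in 2 groups of 3 libraries. The WT group came from healthy mice. The Eumyc group came from mice of that strain injected intravenously with Eµ-myc lymphoma, a transplantable B cell lymphoma driven by Myc, and spleens were taken at day 14. B cells were first depleted and NK1.1+TCRb- cells were then sorted from CD49b-selected cells. In the Eumyc samples the cells that the CD49b beads had not retained were sorted as well, so the sort and the lymphoma cannot be told apart. Nothing in the labels ties the 3 libraries of each group to different mice. The p-values therefore measure the spread between these samples, which may be technical.

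Zinc finger proteins hold short folds around a zinc ion. Most Zfp genes encode tandem C2H2 fingers, each of which reads a few bases of DNA, and the largest subgroup joins them to a KRAB box. The KRAB box recruits the corepressor Trim28 and with it histone methyltransferases, heterochromatin proteins and deacetylases, and many KRAB proteins silence retrotransposons or imprinted regions. KRAB genes arose by tandem duplication and often lie side by side. A smaller branch, Zfp36 and its relatives, has CCCH fingers that bind AU-rich elements of mRNAs and brings in deadenylases, which limits cytokine mRNAs in lymphocytes. These statements are background and not results of these libraries.

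The 3 WT libraries held 16407611 to 36534191 counts and the 3 Eumyc libraries 44456157 to 66615602, so every Eumyc library was deeper. Summed NK marker levels (8 genes, Ncr1 and Gzma among them) were 11056 to 11388 CPM in WT and 10001 to 11115 CPM in Eumyc (exact two-sided permutation p = 0.2). Of these 8 genes 4 were lower and 0 higher. The 4 were Klrd1, Klrb1c, Eomes and Ncr1, at log2 fold changes of -0.70, -0.48, -0.39 and -0.28. Gzma, the largest part of the sum, had means of 3628 CPM in WT and 3900 CPM in Eumyc and did not pass. Whole-list marker sums of the other cell types checked did not overlap between the groups, and each gave an exact permutation p of 0.1, the smallest value that 3 against 3 can reach. Monocyte and macrophage markers (7 of 10 higher) summed to 894 to 1024 CPM in WT and 1412 to 1974 CPM in Eumyc. Most of both sums was Ccr2, at 791 to 924 CPM in WT and 891 to 1003 CPM in Eumyc (log2 fold change 0.23). Mean levels of Lyz2 went from 16.9 to 183 CPM, of Cybb from 7.11 to 138 CPM and of Csf1r from 42.6 to 223 CPM, and 3 of the 10 did not pass. Dendritic markers (4 of 6 higher) summed to 733 to 824 CPM in WT and 1174 to 1256 CPM in Eumyc, almost all of it Itgax, which NK cells also express. The other 5 summed to 9.36 to 12.6 and 7.88 to 12.6 CPM, which overlap (exact permutation p = 1). T cell markers (3 of 9 higher) gave 60.5 to 70.6 CPM against 138 to 180 CPM. Most of this rise came from Cd3d (means of 17.2 and 54.6 CPM) and Cd3g (15.1 and 64.0 CPM). Of the others Cd8b1 rose from 0.29 to 0.93 CPM and 6 did not pass, with Cd3e and Cd6 below 0 on the log2 scale. B cell and lymphoma markers (7 of 8 tested higher) gave 15.8 to 19.4 CPM against 49.9 to 55.8 CPM. Erythroid markers (7 of 8 higher) gave 14.4 to 33.1 against 60.4 to 71.5 CPM, neutrophil markers (6 of 6 tested) 0.164 to 2.80 against 33.96 to 47.6 CPM, and plasma cell markers (3 of 3 tested) 0.436 to 1.83 against 19.7 to 56.4 CPM. No marker was at 0 in all libraries. All 20 cell division genes were higher in Eumyc, at 113 to 505 CPM in WT and 2268 to 3391 CPM in Eumyc, with WT 3 at 505 CPM. The part of these differences in the Zfp results was not tested, and in bulk RNA fewer cells of a type and less RNA per cell cannot be told apart.

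Zfp genes were lower in the NK cells of lymphoma-bearing mice. With edgeR's quasi-likelihood test and an adjusted p under 0.05, 162 of the 255 genes fell, 11 rose and 82 did not pass. Over the 15458 genes tested, 23.1% were lower and 25.7% higher, 48.8% in all. The median log2 fold change of the 255 genes was -0.33, with quartiles of -0.55 and -0.16 and a range from -1.53 to 0.86, against a median of -0.0050 over all tested genes. A value below 0 was found for 223 genes. Among all tested genes that meet the same level rule, 10273 in number, 27.4% were lower and 30% higher, and their median was 0.01. The plot of fold changes in rank order shows this one-sided distribution.

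**Figure D1:**
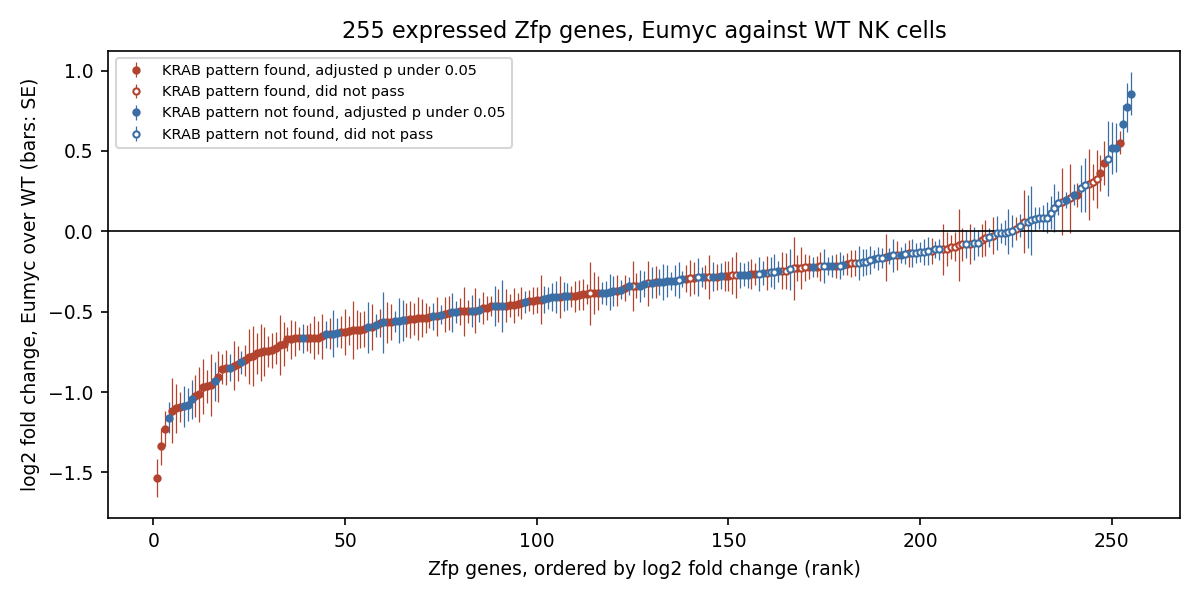
Log2 fold change of Eumyc over WT (vertical axis, bars are 1 standard error) of the 255 expressed Zfp genes in rank order, coloured by the KRAB pattern and filled where the adjusted p was under 0.05. Of the 255 points 223 lie below 0, and the filled points comprise 162 below and 11 above.

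The shift was visible in single libraries. Together the 255 genes took 11932, 12378 and 11781 CPM in WT and 8835, 9432 and 8884 CPM in Eumyc, which is 12031 ± 311 against 9050 ± 331 CPM (SD, n = 3). Without Zfp36l2, the most abundant of them, the sums were 10712 ± 317 and 8427 ± 218 CPM. All WT libraries exceeded all Eumyc libraries in CPM for 195 genes and the reverse held for 12, where 31.7% and 28.6% of all tested genes separated in those directions. The level rule fixed this order for 9 genes, which reached 5 CPM in the 3 WT libraries alone. Without them the counts were 186 and 12 of 246 genes. Relative to the mean over the 6 libraries, the median gene stood at 0.16, 0.23 and 0.16 on the log2 scale in WT and at -0.23, -0.15 and -0.18 in Eumyc. Within groups the differences were smaller. The largest were those of WT 2, with a median of 0.07 against the mean of the other WT libraries (173 of 255 genes higher), and Eumyc 2, with 0.06 against the other Eumyc libraries (177 of 255 higher). WT 3, the shallowest library and the one with the most cell division RNA among the WT, had a median of -0.03 against the mean of the other WT libraries, and Eumyc 1, with the most monocyte RNA, had -0.05 against the other Eumyc libraries.

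Levels chose these genes, so the levels themselves are a description. All 6 libraries reached 5 CPM for 232 genes, of which 152 fell and 9 rose, with a median of -0.34. Another 9 passed the rule only through the 3 WT libraries, so they had to be lower and all 9 were. These are Zfp667, Zfp109, Zfp94, Zfp661, Zfp58, Zfp14, Zfp563, Zfp442 and Zfp931, named for their levels, and all 9 carry a KRAB box. Without them 153 of 246 genes fell and 11 rose, with a median of -0.32. None passed through the 3 Eumyc libraries alone. Just inside the threshold were Zfp940, Zfp105 and Zfp931, whose third-highest libraries stood at 5.13, 5.18 and 5.20 CPM. Just outside were Zfp493, Zfp473 and Zfp119a at 4.94, 4.88 and 4.87 CPM. Of the 130 Zfp genes under the threshold, 66 were testable, 17 fell and 3 rose, and 17 had 0 counts in every library. The fallen share of the 66, 25.8%, was near the 23.1% of all tested genes. The risen share was 4.5%, against 25.7%. Among the genes that met the rule, the median log2 fold change was below 0 at all levels. It was -0.42 for the 106 genes with a mean under 20 CPM (-0.38 without the 9 that passed through WT alone). For the 95 genes at 20 to 50 CPM it was -0.28, and for the 54 genes above 50 CPM -0.30.

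The size of most changes was modest. Tested against a change of 1.5-fold, 18 genes were lower and 0 higher, where 3.67% and 8.15% of all tested genes passed. These 18 were Zfp658, Zfp874b, Zfp874a, Zfp827, Zfp667, Zfp974, Zfp12, Zfp420, Zfp579, Zfp36l2, Zfp948, Zfp109, Zfp949, Zfp623, Zfp715, Zfp945, Zfp395 and Zfp260, and 11 of them carry a KRAB box. Zfp667 and Zfp109 are among the 9 whose direction the level rule fixed, and 16 remain without them, 9 with KRAB. Zfp948, Zfp109, Zfp949, Zfp623, Zfp715, Zfp945 and Zfp260 are named here after their values were seen. Against no change, 112 genes were lower and 5 higher in edgeR and under every alternative fit run, DESeq2 and limma voom included, other than the 1.5-fold test. The 5 were Zfp367, Zfp839, Zfp41, Zfp282 and Zfp106. Genes that met the level rule through WT alone, and so had to be lower, were not left out of the 112.

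KRAB zinc finger genes made up 141 of the 255, judged by a KRAB pattern in the translated coding sequence. Genes without KRAB are those in which the pattern was not found, and a box that departs from it could be missed. Of the 141 KRAB genes 100 fell, 4 rose and 37 did not pass, and their median log2 fold change was -0.45. Without the 9 KRAB genes that met the level rule through WT alone, 91 of 132 fell and the median was -0.42. Among the 114 genes without the pattern 62 fell, 7 rose and 45 did not pass, with a median of -0.26. The difference between the classes was not tested. Summed levels of KRAB genes were 3981 ± 153 CPM in WT and 2882 ± 89.4 CPM in Eumyc (SD, n = 3), and those of the other genes were 8049 ± 158 and 6169 ± 243 CPM. KRAB genes were also the weaker class per length, at a median of 3.99 CPM per kb of exon against 8.30. Their transcripts had a lower median GC content (41.2% against 51.5%, and 49.97% over all tested genes).

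Zfp658, a KRAB gene with 21 fingers at chr7:43562256-43575461 (mm10), had the lowest fold change. It stood at 20.1, 20.9 and 17.3 CPM in WT and 6.23, 7.01 and 6.44 CPM in Eumyc. The groups were far apart and tight within themselves, and the log2 fold change was -1.53 ± 0.12 (SE; edgeR adjusted p = 1.42e-04), which is 2.89-fold lower. The neighbours Zfp874b (chr13:67471514-67484225) and Zfp874a (chr13:67424549-67451624), KRAB genes of 10 fingers each, came next. Zfp874b measured 38.9, 34.2 and 29.6 CPM in WT and 12.7, 13.2 and 13.8 CPM in Eumyc. Zfp874a gave 26.2, 24.8 and 28.8 CPM in WT and 9.70, 11.8 and 11.7 CPM in Eumyc. Both pairs of groups stood apart without overlap. Their log2 fold changes were -1.34 ± 0.11 and -1.23 ± 0.11 (edgeR adjusted p = 1.81e-04 and 1.94e-04). The 50-base stretches were taken from the transcript with the longest coding sequence. Of these, 14.2% in Zfp874b and 16.3% in Zfp874a also occur in other genes, so part of their reads could be assigned elsewhere or dropped. The share between the neighbours themselves was not measured.

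The 250 bases before the RefSeq start of these genes are shown because the 2 neighbours moved together, and Zfp658 and Zfp367 mark the ends of the range. Sequences are from RefSeq (GRCm38.p6), written from the gene's own strand. Capitals mark the searched motifs, TGACGTCA (the cyclic AMP response element) and the NRF1 motif (known by its name). Zfp874a (chr13:67451625-67451874) and Zfp874b (chr13:67484254-67484503) lie on the minus strand, as does Zfp367 (chr13:64153200-64153449), and Zfp658 (chr7:43562120-43562369) lies on the plus strand.
Zfp874a: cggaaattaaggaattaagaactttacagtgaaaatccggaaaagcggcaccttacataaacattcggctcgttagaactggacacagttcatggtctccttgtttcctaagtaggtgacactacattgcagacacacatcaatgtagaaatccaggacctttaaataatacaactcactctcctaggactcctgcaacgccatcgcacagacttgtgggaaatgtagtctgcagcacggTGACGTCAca
Zfp874b: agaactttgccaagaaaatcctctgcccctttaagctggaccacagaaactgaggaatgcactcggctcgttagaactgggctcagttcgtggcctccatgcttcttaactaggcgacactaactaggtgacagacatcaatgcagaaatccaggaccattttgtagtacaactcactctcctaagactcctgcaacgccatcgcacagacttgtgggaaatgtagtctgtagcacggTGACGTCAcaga
Zfp658: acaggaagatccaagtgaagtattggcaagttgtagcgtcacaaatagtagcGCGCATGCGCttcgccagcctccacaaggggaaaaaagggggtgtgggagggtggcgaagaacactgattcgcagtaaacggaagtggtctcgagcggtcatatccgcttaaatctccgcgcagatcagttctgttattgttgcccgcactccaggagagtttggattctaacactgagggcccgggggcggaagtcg
Zfp367: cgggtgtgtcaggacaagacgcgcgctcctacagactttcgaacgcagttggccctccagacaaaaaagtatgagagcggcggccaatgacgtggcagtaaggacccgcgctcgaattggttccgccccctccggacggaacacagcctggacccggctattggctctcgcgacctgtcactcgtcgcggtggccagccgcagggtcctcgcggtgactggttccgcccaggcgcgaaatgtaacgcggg
The Zfp874a and Zfp874b windows were identical at 198 of 269 aligned positions (73.6%), and both hold TGACGTCA near the start. Zfp658 holds 1 NRF1 match. Zfp367 holds none of the exact letters searched, and variant forms of the motifs were not looked for. It has 29 CpG dinucleotides, against 9 and 8 in the neighbours.

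Other KRAB genes among the 10 lowest were Zfp12, Zfp974 and Zfp667. Zfp12 stood at 50.4, 53.8 and 44.7 CPM in WT and 22.2, 24.4 and 21.6 CPM in Eumyc, a log2 fold change of -1.09 ± 0.09 (edgeR adjusted p = 1.82e-04). Zfp974 measured 11.9, 15.9 and 12.7 CPM in WT and 6.32, 6.66 and 5.49 CPM in Eumyc. Each Eumyc library was below each WT library for both, and Zfp974 fell by 1.101 (SE 0.15) on the log2 scale. Zfp667, with means of 6.76 ± 1.11 (WT) and 3.04 ± 0.60 CPM (Eumyc), is one of the genes that met the level rule only through WT. Zfp445, a regulator of imprinting and the most abundant KRAB gene per length among those named here (28.0 CPM per kb), gave 235, 261 and 234 CPM in WT. Its Eumyc libraries stood at 166, 182 and 169 CPM, a log2 fold change of -0.46 ± 0.06 (edgeR adjusted p = 7.95e-04). Zfp809, which recognises the primer binding site of retroviruses, fell from 46.5, 56.2 and 51.0 CPM to 36.6, 38.3 and 36.5 CPM (log2 fold change -0.43 ± 0.08, edgeR adjusted p = 0.00338).

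Among KRAB genes, those with more fingers had the lower median fold change, while genes without KRAB showed no such order. This is a description with no test. The finger count ran from 0 to 36 in the longest coding sequence, with a median of 12 in KRAB genes and 7 in the others. Across the 255 genes, which are not independent replicates and share libraries and depth, finger count and log2 fold change correlated weakly (Pearson r = -0.23, Spearman rho = -0.27). The median log2 fold change was -0.26 for the 7 genes with 0 fingers found, Zfp36l2 among them, -0.18 for the 32 genes with 1 to 4 fingers, -0.31 for 72 genes with 5 to 9, -0.39 for 87 genes with 10 to 14 and -0.46 for 57 genes with 15 or more. In the last of these groups 44 genes fell and 1 rose. These bins and the correlations keep the 9 genes that met the level rule through WT alone and so had to be lower. Without them the medians were -0.29 for 5 to 9 fingers (70 genes) and -0.37 for 10 to 14 (81 genes). For 15 or more the median was then -0.46, and 43 of 56 genes fell. KRAB genes with 10 or more fingers (108 genes) had a median of -0.50 and KRAB genes with fewer (33 genes) -0.32. Leaving out the 9 genes that met the level rule through WT alone, 7 of which have 10 or more fingers, these medians were -0.46 (101 genes) and -0.30 (31 genes). Without KRAB the medians were -0.26 for 10 or more (36 genes) and -0.25 for fewer (78 genes). Exonic length showed no such relation (Pearson r = 0.04).

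**Figure D2:**
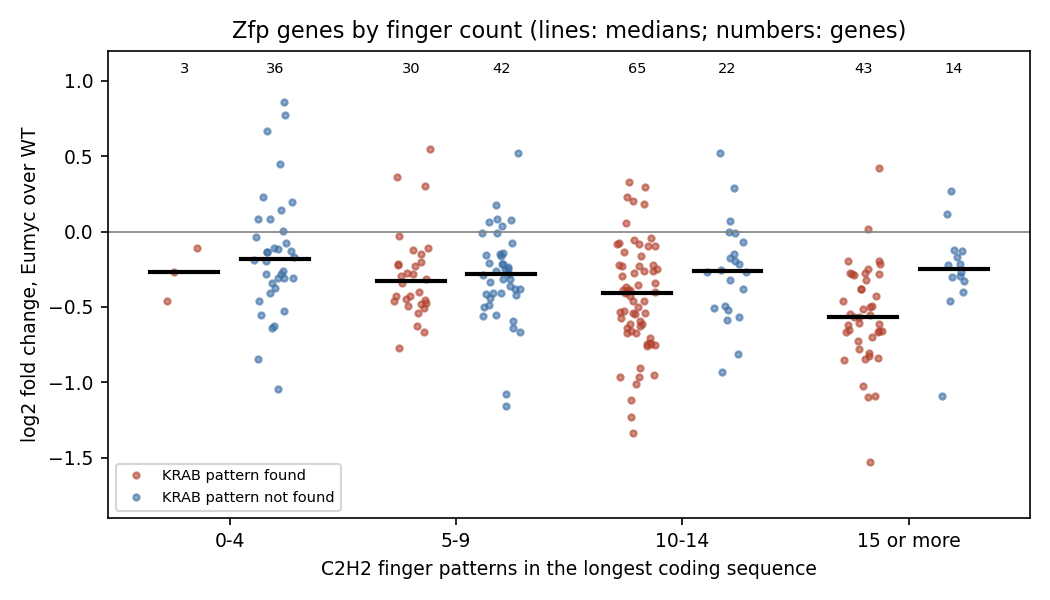
Log2 fold change of Eumyc over WT (vertical axis) by the number of C2H2 finger patterns (horizontal axis), 1 point per gene, with the KRAB pattern in red and its absence in blue. Black lines are medians and the numbers on top count genes. KRAB genes with 10 or more fingers have a median of -0.50 and those with fewer -0.32, while the medians without KRAB are -0.26 and -0.25. The KRAB medians include the 9 genes that met the level rule through WT alone, and are -0.46 and -0.30 without them.

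KRAB genes inside and outside genomic clusters had similar medians. Runs of 5 or more Zfp genes with gaps up to 250 kb numbered 18, and 110 expressed genes lay in them. Of those 79 fell and 2 rose (median -0.40), against 83 and 9 of the 145 outside (median -0.29). Without the genes that met the level rule through WT alone, 73 of 104 fell inside runs (median -0.39) and 80 of 142 outside (median -0.28). Within the KRAB class the medians were -0.44 in runs (88 genes) and -0.45 outside (53 genes), or -0.40 (82 genes) and -0.44 (50 genes) without the 9 genes that met the level rule through WT alone. The largest run, chr13:67038594-67827002, holds 23 Zfp genes, 16 of them expressed and all 16 with KRAB. It contains Zfp874a and Zfp874b, and 12 of the 16 fell and 0 rose (median -0.41). Without Zfp58, which met the rule through WT alone, 11 of 15 fell (median -0.28). On chromosome 17 the run at chr17:21383748-22456689 had 14 expressed genes of 18, of which 13 fell (median -0.58), and the run at chr17:32771236-33631779 had 12 of 13, of which 10 fell (median -0.62), or 9 of 11 without Zfp563. The run at chr7:24081924-24587641 had 4 expressed genes of 12. Zfp109 and Zfp94 met the level rule through WT alone and so had to be lower, and the other two fell, with a median of -0.62.

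By chromosome, the 62 genes on chromosome 7 comprised 42 that fell and 3 that rose (median -0.38), or 38 of 58 without the 4 that met the level rule through WT alone (median -0.35). Chromosome 17 had 36 genes, 29 of which fell and 0 rose (median -0.57). These include Zfp563, which met the level rule through WT alone and so had to be lower. Chromosome 15 had 3 of the 11 risen genes among its 8 (median -0.17), and chromosome 4 had 3 fallen genes of 10 (median -0.24). With all expressed genes kept, those that share sequence with other genes had a similar median. For the 18 genes with over 30% of their 50-base stretches found elsewhere the median was -0.31, and for the other 237 it was -0.33. The 18 include Zfp58, Zfp442 and Zfp931, which met the level rule through WT alone and so had to be lower. No median was taken without such genes for this split.

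**Figure D3:**
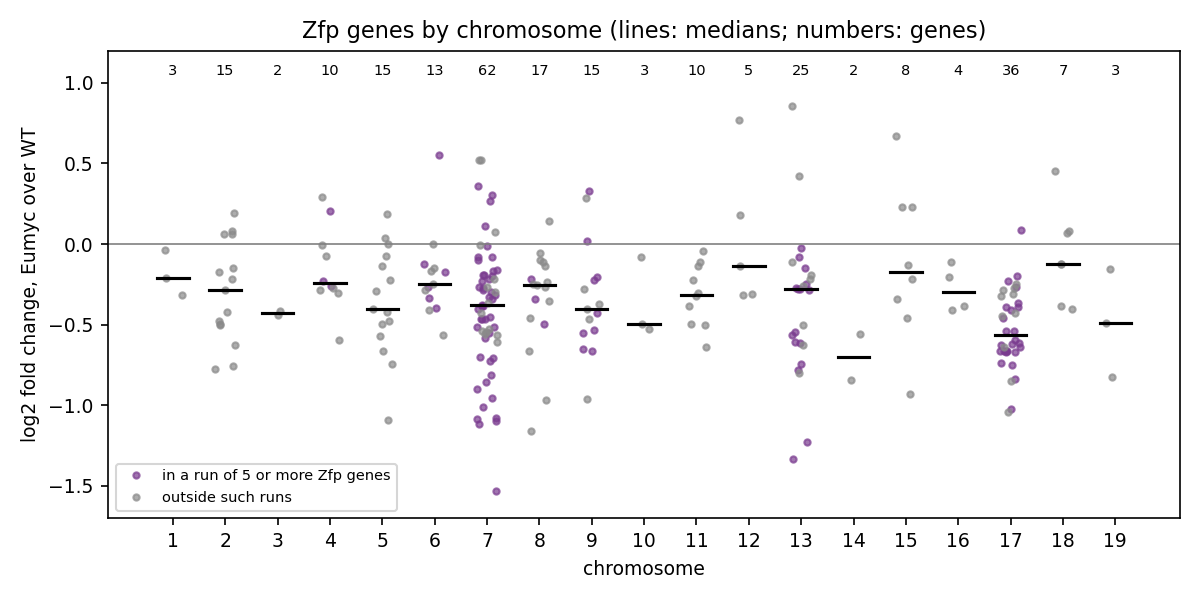
Log2 fold change of Eumyc over WT (vertical axis) of each expressed Zfp gene by chromosome (horizontal axis), purple inside runs of 5 or more Zfp genes and grey outside. Lines are medians and numbers count genes. On chromosome 17, 29 of 36 genes fell and the median was -0.57, with Zfp563, which met the level rule through WT alone, included.

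The CCCH branch was lower as well, and it includes the most abundant Zfp mRNA of these cells. Zfp36l2 (chr17:84183931-84187947) stood at 275 CPM per kb, followed by Zfp36 at 46.7 and the spindle assembly factor Zfp207 at 45.5, while the median of the 255 genes was 5.06. Zfp36l2 gave 1274, 1325 and 1355 CPM in WT and 572, 757 and 541 CPM in Eumyc, with Eumyc 2 the highest of its group and still far under WT. Its log2 fold change was -1.05 ± 0.12 (edgeR adjusted p = 4.11e-04), or 2.06-fold lower. Zfp36, or tristetraprolin (chr7:28376784-28380253), measured 201, 218 and 165 CPM in WT and 152, 128 and 109 CPM in Eumyc. Its groups lay close together without overlap, and the log2 fold change was -0.56 ± 0.14 (edgeR adjusted p = 0.0117), with 0.0535 when WT 2 was left out. Zfp36 is also an immediate early gene, and 10 of 16 immediate early genes fell and 3 rose, with sums of 1851 to 1988 CPM in WT and 1231 to 1552 CPM in Eumyc.

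Zfp36l1 (chr12:80107754-80113013) had 74.5, 77.6 and 64.7 CPM in WT and 61.0, 59.4 and 50.6 CPM in Eumyc. The lowest WT library was only a little above the highest Eumyc library, and the log2 fold change of -0.31 ± 0.10 passed narrowly (edgeR adjusted p = 0.0330). The adjusted p was 0.108 without WT 1, 0.122 without WT 2, 0.0576 without Eumyc 2 and 0.107 without Eumyc 3. Among 23 tested mRNAs listed as targets of these proteins, 7 rose, 5 fell and 11 did not pass, and their median of -0.02 was close to that of all tested genes.

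**Figure D4:**
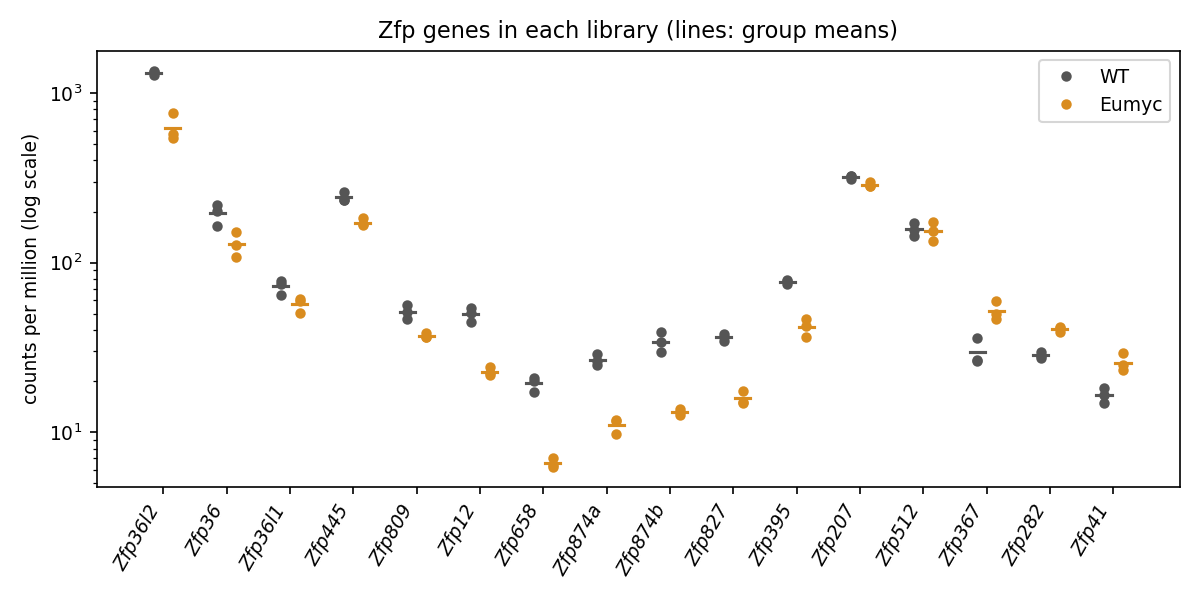
CPM of 16 Zfp genes in each library (vertical axis, log scale), WT in grey and Eumyc in orange, with lines at the group means. The groups separate for Zfp36l2, Zfp658, Zfp874a and Zfp874b, overlap for Zfp512, and stand in the opposite order for Zfp367, Zfp282 and Zfp41.

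Of 9 genes with described roles in lymphocytes or signalling, 5 fell, 1 rose and 3 did not pass (median -0.26). Zfp395 had 74.9, 78.3 and 78.4 CPM in WT and 36.6, 42.4 and 46.6 CPM in Eumyc, the clearest separation of the list, with a log2 fold change of -0.85 ± 0.09 (edgeR adjusted p = 2.64e-04). Zfp318, which is needed for IgD on B cells, fell from 94.5, 98.8 and 73.3 CPM to 57.3, 64.2 and 46.0 CPM (log2 fold change -0.64 ± 0.15, edgeR adjusted p = 0.00778). Zfp652, a transcriptional repressor, fell from 177 ± 13.6 to 122 ± 4.56 CPM (log2 fold change -0.50 ± 0.07). These fell in the same samples, but the smaller changes in the list were less secure. Zfp609 fell by 0.37 (SE 0.09) with an edgeR adjusted p of 0.0120, which became 0.0511 without WT 1 and 0.0529 without Eumyc 3. Zfp91, a ubiquitin ligase of the noncanonical NF-kB pathway, had 247 ± 8.93 CPM in WT and 217 ± 6.06 CPM in Eumyc. Its edgeR adjusted p was 0.0383 with all libraries, and without 1 library it was 0.0660 (WT 1), 0.139 (WT 2), 0.0586 (WT 3), 0.145 (Eumyc 1), 0.0866 (Eumyc 2) or 0.110 (Eumyc 3).

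Zfp335, which supports the maturation of T cells, gave 97.6 ± 9.67 and 84.4 ± 5.78 CPM and did not pass (edgeR adjusted p = 0.129, and 0.0326 without WT 3). Zfp703 gave 28.0 ± 3.16 and 22.8 ± 1.53 CPM (edgeR adjusted p = 0.0671, and 0.0196 without WT 3). Zfp608 gave 5.27 CPM in WT and 7.01 CPM in Eumyc and did not pass unless Eumyc 2 was left out (edgeR adjusted p = 0.0495). The list's single risen gene was Zfp710, at 30, 27.2 and 27.4 CPM in WT and 49.3, 36.0 and 33.2 CPM in Eumyc. Eumyc 1 was the highest for Zfp710 by some distance, and Eumyc 1 also had the highest monocyte marker sum. A link between them was not tested, and among omissions of 1 library only that of WT 2 removed the call of Zfp710. The log2 fold change of Zfp710 was 0.52 ± 0.15 (edgeR adjusted p = 0.0209, and 0.0696 without WT 2).

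Among 16 expressed transcription and chromatin factors 9 fell, 1 rose and 6 did not pass, and their median of -0.18 was nearer to 0 than that of the 255 genes. Zfp592 and Zfp687, subunits of a chromatin complex with Zmynd8, were both lower. Zfp592 stood at 156, 164 and 156 CPM in WT and 118, 128 and 115 CPM in Eumyc, and Zfp687 at 80.8, 74.8 and 73.0 CPM and 51.5, 56.9 and 56.2 CPM. Neither gene's groups overlapped, and the log2 fold changes were -0.36 ± 0.06 and -0.44 ± 0.07 (edgeR adjusted p = 0.00160 and 0.00131). Zfp219 fell by 0.56 (SE 0.07), Zfp518a by 0.49 (SE 0.07) and Zfp644, a partner of the histone methyltransferases G9a and GLP, by 0.42 (SE 0.09). Zfp131 fell by 0.22 (SE 0.06; edgeR adjusted p = 0.0156), with 0.0609 without WT 1, 0.0532 without Eumyc 1 and 0.0634 without Eumyc 3.

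Zfp143, which binds near many gene starts, had an edgeR adjusted p of 0.0301 that lay above 0.05 without WT 1 (0.119), WT 2 (0.0926), Eumyc 1 (0.0724), Eumyc 2 (0.0998) or Eumyc 3 (0.0993). For Zfp384, at 100 ± 1.56 and 88.4 ± 1.70 CPM, the adjusted p of 0.0440 did so without WT 1 (0.101), WT 2 (0.112), WT 3 (0.0861), Eumyc 1 (0.0810), Eumyc 2 (0.132) or Eumyc 3 (0.161). The widely expressed factors Zfp148, Zfp281, Zfp292 and Zfp217 did not pass, at log2 fold changes of -0.11, -0.04, -0.07 and 0.08, nor did Zfp410, an activator of Chd4, at 0.18, and Zfp516 at 0.07. Zfp148, Zfp281 and Zfp292 lay above 0 after removal of trends with GC content and transcript length, at 0.07, 0.03 and 0.09, and Zfp516 lay below 0 without WT 1 (-0.05), WT 2 (-0.01) or Eumyc 3 (-5.157e-04).

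Genes of RNA handling and ribosomes had small changes. Of 9 expressed ones 4 fell, 1 rose and 4 did not pass (median -0.19). Zfp598, a ubiquitin ligase that marks collided ribosomes, had 152, 153 and 159 CPM in WT and 118, 129 and 119 CPM in Eumyc, which do not overlap (log2 fold change -0.31 ± 0.05, edgeR adjusted p = 0.00236). Zfp638, which helps to silence unintegrated retroviral DNA, fell from 188 ± 11.9 to 151 ± 1.47 CPM (log2 fold change -0.28 ± 0.06). Zfp326, a splicing and elongation factor, fell by 0.41 (SE 0.09). Zfp830 fell by 0.31 (SE 0.10; edgeR adjusted p = 0.0303), a value that became 0.0567 without WT 1, 0.105 without WT 2, 0.0792 without Eumyc 1, 0.0759 without Eumyc 2 and 0.110 without Eumyc 3.

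Zfp207 gave 324, 310 and 322 CPM in WT and 282, 283 and 298 CPM in Eumyc, apart but by a small margin (log2 fold change -0.11 ± 0.05, edgeR adjusted p = 0.0989). The ribosome maturation factor Zfp622, the double-stranded RNA binder Zfp346 and the nucleolar protein Zfp330 did not pass either, at -0.13, -0.19 and -0.13. Scaling by total counts or by the upper quartile brought Zfp207 under 0.05. Zfp106, an RNA-binding protein of nerve and muscle, was the risen one, at 128, 128 and 120 CPM in WT and 140, 141 and 140 CPM in Eumyc (log2 fold change 0.20 ± 0.05, edgeR adjusted p = 0.0144).

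Other genes in which the KRAB pattern was not found reached larger changes. Zfp827, which brings the NuRD complex to telomeres, had 38.1, 36.2 and 34.5 CPM in WT and 14.9, 17.6 and 15.03 CPM in Eumyc (log2 fold change -1.16 ± 0.10, edgeR adjusted p = 1.79e-04). Zfp579 gave 59.8, 62.9 and 58.7 CPM in WT and 26.7, 32.2 and 24.9 CPM in Eumyc (log2 fold change -1.08 ± 0.10, edgeR adjusted p = 2.27e-04). Zfp420 fell by 1.09 (SE 0.13). All 3 had every Eumyc library under every WT library. Zfp740 (36.8 CPM per kb), one of the abundant members of the family, fell from 212 ± 9.92 to 163 ± 5.28 CPM (log2 fold change -0.34 ± 0.06). Zfp512 did not pass (log2 fold change 0.00 ± 0.10), at 144, 156 and 172 CPM in WT and 134, 153 and 174 CPM in Eumyc, so that both groups spanned a similar range.

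Of the 11 genes that rose, 4 carry a KRAB box, Zfp282, Zfp251, Zfp382 and Zfp808. Zfp367 (chr13:64133022-64153202), a C2H2 gene of 2 fingers, was the highest, at 26.7, 26.3 and 35.8 CPM in WT and 46.5, 49.97 and 59.6 CPM in Eumyc. The highest library of each group, WT 3 and Eumyc 3, was also the one with the most cell division RNA. Its log2 fold change was 0.86 ± 0.13 (edgeR adjusted p = 0.00135), or 1.81-fold higher. Zfp41 had 14.8, 18.3 and 16.5 CPM in WT and 23.1, 24.8 and 29.1 CPM in Eumyc (log2 fold change 0.67 ± 0.12, edgeR adjusted p = 0.00230). Zfp282, a repressor first described at a retroviral promoter, had 29.7, 28.2 and 27.4 CPM in WT and 38.9, 41.0 and 41.9 CPM in Eumyc, with little spread in either group. Its log2 fold change was 0.55 ± 0.07 (edgeR adjusted p = 6.36e-04). Zfp839, at 4.82 ± 0.69 and 7.97 ± 0.40 CPM, rose by 0.77 (SE 0.15).

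The remaining risen genes were less secure, and edgeR called 7 genes higher without WT 1, 6 without WT 2 and 7 without Eumyc 3. Zfp296, at 4.71 ± 0.62 and 6.63 ± 0.65 CPM, had adjusted p-values of 0.0718 without WT 1, 0.0577 without WT 3, 0.0848 without Eumyc 1 and 0.0653 without Eumyc 3. For Zfp382 the values were 0.0644 (WT 1), 0.0809 (WT 2), 0.0683 (Eumyc 2) and 0.0974 (Eumyc 3), and for Zfp251 they were 0.0582 (WT 2), 0.0612 (WT 3), 0.0933 (Eumyc 2) and 0.0568 (Eumyc 3). Zfp706 gave 0.0654 (WT 1), 0.0661 (WT 2) and 0.0570 (Eumyc 1). Zfp808, 46.4% of whose 50-base stretches occur in other genes, gave 0.0926 (WT 1), 0.0656 (WT 2), 0.0767 (Eumyc 1), 0.0635 (Eumyc 2) and 0.0737 (Eumyc 3). KRAB genes called higher numbered fewer without WT 1 (2), WT 2 (1), Eumyc 2 (1) or Eumyc 3 (1). The count of fallen genes without KRAB was 41 without WT 2 and 39 without Eumyc 3.

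The cofactors of KRAB proteins did not share one direction. Of 22 listed cofactors 10 rose, 5 fell and 7 did not pass, with a median log2 fold change of 0.09. Trim28, the corepressor itself, had 203, 193 and 229 CPM in WT and 226, 249 and 257 CPM in Eumyc. WT 3 exceeded the lowest Eumyc library, so the groups overlapped, and the log2 fold change was 0.27 ± 0.07 (edgeR adjusted p = 0.0187). Without WT 1, WT 2 or Eumyc 3 the adjusted p of Trim28 was 0.0645, 0.0655 and 0.0545. The heterochromatin proteins Cbx5 and Cbx3 rose by 1.00 (SE 0.13) and 0.64 (SE 0.11), Dnmt1 by 0.42 (SE 0.07), Chd4 by 0.31 (SE 0.07) and Pphln1 of the HUSH complex by 0.30 (SE 0.06). Levels of Cbx5, Cbx3 and Dnmt1 were highest in WT 3 and Eumyc 3 of their groups, the libraries with the most cell division RNA. Smaller rises were found for Hdac1 (0.19, lost without WT 1 at 0.0552), Mta1, Cbx1 and Smarcad1. Mta1 was lost without WT 1 (0.0537), WT 2 (0.0632) or Eumyc 3 (0.0683), Cbx1 without WT 1 (0.103), WT 2 (0.0935), Eumyc 1 (0.0621) or Eumyc 3 (0.107). Smarcad1 was lost without any 1 library other than WT 1, with adjusted p-values of 0.0737 to 0.0860.

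Among the fallen cofactors were Chd3 (-0.49 ± 0.09), Trim24 (-0.44 ± 0.10), Atf7ip (-0.40 ± 0.07) and Fam208a, the core HUSH subunit (-0.35 ± 0.08). Morc3 (-0.16 ± 0.06) was lost without WT 2, WT 3 or any 1 Eumyc library, at adjusted p-values of 0.0841 to 0.150. The methyltransferase Setdb1 did not pass (-0.11 ± 0.07, edgeR adjusted p = 0.187).

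The related C2H2 families Zbtb, Zscan and Zkscan also had medians below 0. In the Zbtb family 21 of 36 tested genes fell and 3 rose (median -0.31), with Zbtb10 at -1.18 and Zbtb48 at -0.81, and Zbtb32 at 2.48 and Zbtb8a at 0.55. Zbtb8a lost its call without WT 2 (0.0670), Eumyc 1 (0.0518) or Eumyc 3 (0.0838). Of 18 tested Zscan and Zkscan genes 9 fell and 0 rose (median -0.37), with Zscan26 at -1.02 and Zkscan3 at -0.82. The Zc3h genes, named for CCCH fingers, had 6 fallen and 5 risen genes of 17 tested (median 0.06), among them Zc3h12a (-0.53), Zc3h11a (-0.48), Zc3hav1l (0.83) and Zc3h12c (5.53, from 0.06 to 1.90 CPM). Zc3h11a lost its call without WT 1 (0.0645), Eumyc 1 (0.0631) or Eumyc 3 (0.0702). Whether the Zfp genes differ from these families was not tested.

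Promoter windows of 250 bases could be read for 218 of the 255 genes, of 27018 in the RefSeq table. The exact letters CACGTG (the E-box that Myc and its partners bind) occurred in 6.88% of them and in 6.04% of all windows. CCGGAAGT (an ETS site) occurred in 9.17% against 2.92%, TTTCCCGC or TTTGGCGC (E2F sites) in 3.21% against 1.35%, the NRF1 motif in 6.42% against 3.87% and TGACGTCA in 3.67% against 1.60%. Both strands were searched, CACGTG and TGACGTCA read the same on both, and no motif contains another. The windows of the Zfp genes had a median of 12 CpG dinucleotides against 6 and a median GC content of 54.6% against 52.0%, and they come from expressed genes, while the table holds all genes. Among the 142 fallen genes with a window 5.63% held the E-box and 10.6% the ETS site, and among the 68 that did not pass 10.3% and 7.35% did. None of the 8 risen genes with a window held any of the 5 motifs in the letters searched. Other forms of these sites, E2F sites included, were not looked for, so their absence is not shown. A match is a description of the letters and not a binding site.

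The authors' deposited table, made from these same libraries, lists all 255 genes. It gives 166 of them as lower and 11 as higher at an adjusted p under 0.05, where 29.5% and 30.5% of its genes are lower and higher. The sign in the authors' deposited table was the same as in edgeR for 254 genes, and 172 genes were called in both. In the authors' deposited table the log2 fold changes were -1.49 for Zfp658, -1.03 for Zfp36l2, -0.54 for Zfp36 and 0.82 for Zfp367.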

How the data were processed

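Bulk RNA sequencing libraries (Illumina TruSeq) of sorted splenic NK cells were compared, 3 WT and 3 Eumyc. The authors deposited whole-number counts per gene and a table of their own comparison with log2 fold changes, p-values, a mean normalized signal and a test score. From that table only the log2 fold changes and adjusted p-values were used. The submitters' processing notes name the tools DESeq2 1.10.1, HTSeq 0.6.1 and STAR 2.5.2 and the mouse build mm10 (GRCm38). The strand setting or annotation release was not given in the sources used here. Overlapping and antisense genes are therefore uncertain.

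Counts were tested with edgeR 4.0.16 (R 4.3.3, TMM, filterByExpr at a minimum count of 10, group alone, quasi-likelihood, two-sided) on the whole table, with Benjamini-Hochberg adjustment over all tested genes and standard errors from the F statistic. CPM values use column totals without TMM, and errors are SDs over 3 libraries. KRAB boxes and C2H2 fingers (2 or 4 residues between the cysteines, 12 to the first histidine, 3 to 5 between the histidines) were found by pattern in GENCODE M21 coding sequences in place of a protein table. A KRAB box needed 12 of 20 key positions within 34 residues, set after the data were seen. Exonic length, GC content and 50-base sharing came from that annotation.

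The genes and lists were chosen with earlier results of these data known. Named were the 10 highest and 10 lowest called genes, the 8 most abundant, all expressed genes of the role lists, the 2 highest and 2 lowest called genes of each related family and the called KRAB cofactors. Zbtb8os and Zc3hc1, which share a family's symbol without its fingers, were left out of the families after the data were seen. The genes past 1.5-fold were added after their values were seen. Alternatives were DESeq2 1.42.0, limma 3.58.1 voom, other scalings, filters, thresholds and KRAB patterns, the omission of each library and a replicate block. Equal depth and removal of GC and length trends were added after seeing the data. The edgeR script was tested on simulated counts. Figures were drawn with matplotlib 3.10.9.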

Additional observations from a re-analysis of the deposited data

How the results depend on the processing

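The median of the 255 Zfp genes stayed below 0 under the 17 alternative fits. Medians of log2 fold changes ran from -0.34 to -0.31 when 1 library was left out, and removal of trends with GC content and transcript length, chosen after seeing the data, gave -0.29. Higher genes numbered 6 to 10 and lower genes 120 to 157 without 1 library. For KRAB genes these counts were 1 to 4 and 81 to 98, and for the others 5 to 8 and 39 to 59. Against a change of 1.5-fold the test gave 0 higher and 18 lower Zfp genes, 0 and 11 with KRAB, 0 and 7 without, 1260 and 568 of all tested genes, and 3 and 4 of the related families and cofactors (18 and 41 against no change). That test asks for a larger change.

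With the replicate block edgeR called 11 Zfp genes higher and 164 lower. Same-numbered libraries deviated together with correlations of only 0.04, 0.10 and 0.13, so the numbers were not taken to pair samples. Over 89 named genes and 1511 repeats, 1326 kept direction and call, 158 lost a call, 15 gained one and 12 changed sign, all 12 in genes that did not pass. Zfp512 stood at -0.033 with total counts, -0.037 with the upper quartile, -0.00925 with a 5 CPM filter, -0.00261 with the replicate block, and -0.082 to 0.10 without 1 library. Zfp148, Zfp281 and Zfp292 stood at 0.066, 0.032 and 0.088 after the trend removal, and Zfp516 at -0.055 to 0.31 without 1 library. The cause was not tested.

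The shallowest library, WT 3, held 16407611 counts, and thinning every library to that total, an alternative chosen after seeing the data, left 9 Zfp genes higher and 151 lower.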
